A study of Homo sapiens with 6 samples.

Results

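The genes described here encode the machinery of the lysosomal membrane that acidifies the organelle and reports amino acids to the growth kinase mTORC1. There were 39 listed genes in 5 classes, and 38 of them had at least 1 probe set on the array, 114 probe sets in all, out of 18239 genes and 49293 probe sets measured. The classes were the proton pump (17 genes), the LAMP glycoproteins (2), Ragulator with the Rag GTPases and the folliculin complex (11), the channels and transporters (6) and the TFE transcription factors (3). Probe sets were matched to the listed genes by the platform's gene symbol, a step that uses no measured value. The list itself was chosen with earlier results of these data known. The expression of LAMTOR1, a lipid-anchored subunit of Ragulator, was not analysed here, and the gene enters the promoter search alone.

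The arrays, 6 in all and of the Affymetrix 3-prime type, read RNA of MV4;11, an established line of human leukemia cells whose MLL gene is fused to a partner. The 3 MI-389 cultures received 4 µM MI-389, which the series describes as an inhibitor of the menin-MLL interaction, for 6 days, and the 3 DMSO cultures received solvent alone for the same time. All 6 cultures held 0.25% DMSO and had their medium and compound renewed on day 3. The line stems from a single leukemia. The labels speak of biological replicates but not of how far the cultures were kept apart, and p-values here reflect no more than the scatter among these arrays, part of which may be technical.

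The vacuolar ATPase is a rotary pump. Its cytosolic V1 sector hydrolyses ATP and turns a rotor that drives protons through the membrane-bound V0 sector, and the acid interior that results is what lysosomal hydrolases need. The same membrane carries Ragulator, a scaffold that anchors Rag GTPase heterodimers, each made of RagA or RagB with RagC or RagD. When amino acids are plentiful the Rag dimers bring mTORC1 to the lysosome and hold TFEB and TFE3 in the cytoplasm. When amino acids are scarce, folliculin action on RagC and RagD is lost, and these factors enter the nucleus and switch on lysosomal genes through E-boxes of the CLEAR type. The activity of the TFE factors depends largely on where the protein lies in the cell, which was not measured.

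With MI-389, 11 of the 38 measured genes rose and 5 fell at an adjusted p under 0.05 (limma, Benjamini-Hochberg over all 18239 genes), and 22 did not pass. The changes were small and ran both ways within the pump. ATP6V1A, the catalytic subunit of the pump, rose 1.63-fold, and the Rag GTPase genes RRAGD and RRAGC rose 1.60-fold and 1.57-fold. The largest falls were those of ATP6V1E1 and ATP6V1H, both of the V1 sector, and of the calcium channel gene MCOLN1, by 0.40, 0.36 and 0.33 on the log2 scale. Of the 3 probe sets of RRAGD only 1 rose, and of the 2 of MCOLN1 only 1 fell. The shares were 28.9% and 13.2% of the 38, beside 18.4% and 15.7% of all genes tested (34.1% in both directions together). The median change of the 38 was 0.02, the same as the 0.02 of all genes. Changes of at least 0.5 on the log2 scale past the threshold counted 3 higher and 0 lower, where 6.61% and 5.91% of all genes reached that size (12.5% together).

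The arrays have no detection calls, so the highest value of the nonspecific control probe sets, 5.49 with the probe set of highest GC content left out, serves as a guide to background. Of the 38 genes, 5 lay under it on all arrays, namely ATP6V0D2, LAMTOR5, RRAGB, TFE3 and MITF. Among the other 33, 10 rose and 5 fell, or 30.3% and 15.2%, and among all genes selected in the same way 30.5% rose and 27.5% fell. The share that rose was thus close to that of all genes above the guide. The groups did not overlap for 22 of the 38 genes, against 8269 of all 18239 genes (45.3%). Of those 18239 genes, 9123 lay under the guide on all arrays, so the 2 sets differ in brightness. The share without overlap among genes above the guide was not computed.

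**Figure D1:**
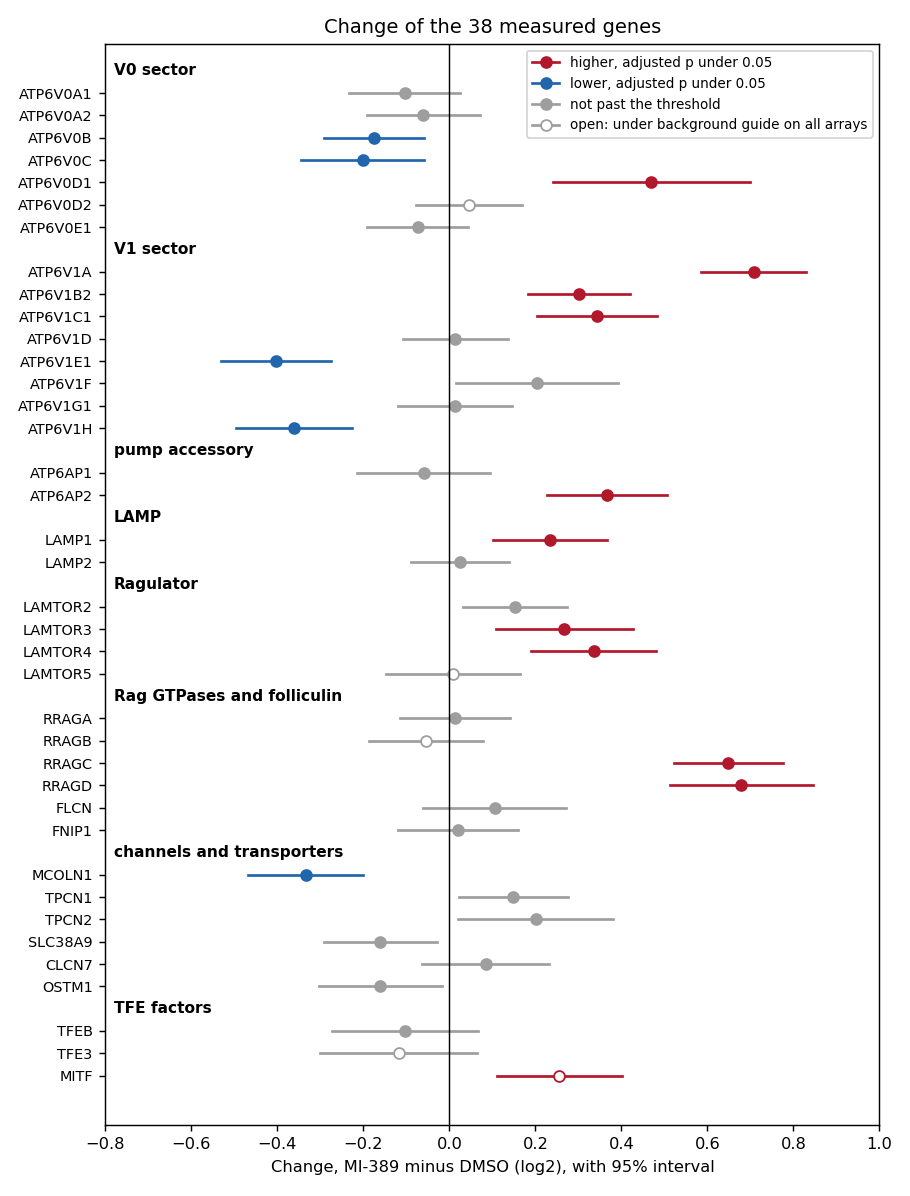
Change of each measured gene, MI-389 minus DMSO on the log2 scale (points), with the 95% interval from limma (lines), 3 arrays per group, by class. ATP6V1A, RRAGC and RRAGD lie farthest to the right, ATP6V1E1, ATP6V1H and MCOLN1 farthest to the left, and open points mark the 5 genes under the background guide on all arrays; with the arrays centred on spike-in controls every point moves left by 0.25.

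The direction of small changes depended on the scaling of the arrays. The control transcripts of foreign origin that are spiked in at hybridisation read 0.25 higher on the MI-389 arrays. Centring the arrays on them lowered every gene by that amount, moved the median of all genes to -0.23, and left 4 of the 38 genes higher (ATP6V0D1, ATP6V1A, RRAGC and RRAGD) and 21 lower. The values below are those of the deposited scaling. The ratio of the 3-prime to the 5-prime probe sets of actin, a sign of RNA integrity and of labelling, was 1.48 to 1.91 on the MI-389 arrays and 1.23 to 1.39 on the DMSO arrays (log2 difference), and its part in the results was not tested.

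The markers of monocytes and macrophages moved with the treatment. Of 18 measured, 14 rose and 1 fell, and their mean level was 7.13 to 7.21 on the MI-389 arrays and 5.14 to 5.21 on the DMSO arrays. The list was chosen with earlier results of these data known and holds MNDA, whose rise of 6.01 was the largest of all genes. Over all genes, 18.4% rose and 15.7% fell. Of the 18, 6 lay under the background guide on all arrays, among them CD14, FCN1 and CD163, which passed as higher. In bulk RNA a change in every cell and a change in the make-up of the culture cannot be told apart, nor can fewer cells of a type and less RNA per cell, and the part of these markers in the changes below was not tested. Of 7 markers of osteoclasts, cells rich in proton pumps, 1 rose and 2 fell, with a median change of -0.05, and 4, among them MMP9, the one that rose, were under the guide on all arrays. Their mean level was 4.61 to 4.73 with MI-389 and 5.44 to 5.52 with DMSO, a gap that rests on OCSTAMP, which was under the guide with MI-389 and at least 14.4-fold lower. All measured markers of T cells (4), erythroid cells (3) and megakaryocytes (4) were under the guide on all arrays, as were 2 of 3 of B cells and 4 of 5 of fibroblasts and epithelium. Of 6 markers of the myelomonocytic line, 2 rose and 3 fell, with a median change of -0.36. FLT3 and FCGR1A fell by 1.41 and 1.27, and LYZ and PTPRC rose by 2.06 and 0.34. SPI1, which passed as lower, was the one marker of this list under the guide on all arrays. LYZ and FCGR1A also stand in the list of monocytes and macrophages, where FCGR1A is the marker that fell.

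E-boxes were searched because the TFE factors are known to bind them. The search covered RefSeq promoters of GRCh38.p14, from 250 bases before to 50 after the start site. The motifs were CACGTG, the longer TCACGTGA that holds it, and the full CLEAR palindrome, TCACGTGA with a G before and a C after it. Each reads the same on both strands, and each longer motif is also counted under the shorter ones. CACGTG alone is a general E-box and not specific to the CLEAR type. Of the 39 genes, 30 had a promoter in the table, and 11 of these (36.7%) held CACGTG, 5 (16.7%) TCACGTGA and 3 (10.0%) the full palindrome. The shares over all 27305 genes of the table were 8.77%, 1.18% and 0.421%. E-boxes of the CLEAR type are known from lysosomal genes, so a higher share among listed lysosomal genes was to be foreseen. The search used no measured value. CACGTG was found in the promoters of 4 of 7 genes that rose, 2 of 4 that fell and 4 of 18 that did not pass, and in that of LAMTOR1. Genes without a promoter entry were ATP6V1A, ATP6V1B2, ATP6V1C1 and RRAGD, which rose, and ATP6V1H, which fell. ATP6V0D2, ATP6V0E1, LAMP2 and RRAGA, which did not pass, also had none. A match is a description of the letters and not a binding site. The windows of genes that rose (RRAGC, LAMTOR4, ATP6V0D1) or fell (MCOLN1, ATP6V0B), and of both other genes with the full palindrome, are shown in the direction of transcription with the longest matching motif in capitals.
RRAGC, chr1:38859867-38859896, minus strand, motif starting at -112 bases from the start site: aggtgattccggCACGTGacggggcaccac
LAMTOR4, chr7:100148892-100148921, plus strand, at -14: agcggctgcaagCACGTGaccggggcctga
ATP6V0D1, chr16:67481199-67481228, minus strand, at -60: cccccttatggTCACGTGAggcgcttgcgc
MCOLN1 distal copy, chr19:7522571-7522600, plus strand, at -42: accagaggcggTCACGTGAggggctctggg
MCOLN1 proximal copy, chr19:7522598-7522627, plus strand, at -16: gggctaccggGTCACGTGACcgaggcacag
ATP6V0B distal copy, chr1:43974891-43974920, plus strand, at -57: ccggcgtggggtCACGTGgtaccggcgcat
ATP6V1G1, chr9:114587699-114587728, plus strand, at -60: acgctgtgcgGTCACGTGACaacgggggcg
RRAGB, chrX:55717712-55717741, plus strand, at -27: ggtagcggcaGTCACGTGACagactccggg

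The promoter of LAMP1, a gene that rose by 0.23, held 6 copies of CACGTG, the most among these genes. Its last 200 bases before the start site are shown because 4 of the copies follow each other in a repeated stretch; CACGTG is in capitals, and the sixth copy lies across the start site.
LAMP1 upstream region, chr13:113297039-113297238, plus strand: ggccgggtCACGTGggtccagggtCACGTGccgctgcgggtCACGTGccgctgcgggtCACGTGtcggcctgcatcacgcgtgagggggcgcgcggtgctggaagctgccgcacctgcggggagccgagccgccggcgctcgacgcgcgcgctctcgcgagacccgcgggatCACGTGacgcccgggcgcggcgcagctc
Of the genes with the full palindrome, MCOLN1 fell, ATP6V1G1 did not pass, and RRAGB lay under the background guide.

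Among the 17 pump genes, 5 rose and 4 fell, with a median change of 0.01, which became -0.01 with a common array median and -0.24 with spike-in centring. In the V1 sector the genes of the catalytic hexamer rose. ATP6V1A, whose product binds and hydrolyses ATP, had log2 values of 10.07, 10.03 and 10.13 on the MI-389 arrays and 9.34, 9.36 and 9.40 on the DMSO arrays. All 3 MI-389 arrays lay above all DMSO arrays, by far more than the spread within a group. The change was 0.71 (SE 0.05, 95% interval 0.59 to 0.83, limma adjusted p = 4.36e-06), and the gene was called in all 17 alternative settings. The other 4 probe sets of ATP6V1A rose by 0.98 to 1.42, so the brightest probe set, which stands for the gene here, had the smallest change of the 5.

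ATP6V1B2, the non-catalytic partner of subunit A in the hexamer, averaged 11.12 ± 0.03 with MI-389 and 10.82 ± 0.03 with DMSO (log2 mean ± SD, n = 3 each), a change of 0.30 (limma adjusted p = 0.00126), and all 3 of its probe sets rose. ATP6V1C1, a subunit that joins the hexamer to the membrane sector and leaves when the pump disassembles, averaged 8.79 ± 0.07 with MI-389 and 8.44 ± 0.07 with DMSO, a change of 0.34 (limma adjusted p = 0.00158). Of the 5 probe sets of ATP6V1C1, 3 rose and 2 did not pass. Probe set names with the suffixes _a_at, _s_at or _x_at mark sets that read several transcripts or shared sequence. The single probe set of ATP6V1C1 without such a suffix changed by 0.11, which was not called, and lay under the background guide.

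Both V1 genes that fell encode parts outside the hexamer's core. ATP6V1E1, a subunit of the peripheral stalks that hold the hexamer still, had values of 9.63, 9.59 and 9.53 with MI-389 and of 9.96, 9.96 and 10.04 with DMSO. The groups were well apart, the change was -0.40 (SE 0.06, limma adjusted p = 3.07e-04), and both probe sets of ATP6V1E1 fell. ATP6V1H, a regulatory subunit needed for ATP-driven pumping, had values of 7.13, 7.25 and 7.16 with MI-389 and of 7.61, 7.55 and 7.47 with DMSO. Every MI-389 array lay below every DMSO array. The change of ATP6V1H was -0.36 (SE 0.06, limma adjusted p = 9.72e-04) from its single probe set.

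The remaining V1 genes did not pass. ATP6V1D, the shaft of the rotor, and ATP6V1G1, the partner of subunit E in the stalks, each changed by 0.01, with intervals of -0.11 to 0.14 and -0.12 to 0.15. ATP6V1F, which sits on the rotor shaft, changed by 0.20 (interval 0.01 to 0.39, limma adjusted p = 0.0954). Its values were 9.88, 9.81 and 9.55 with MI-389 and 9.48, 9.54 and 9.59 with DMSO, so that MI-389 replicate 3 lay within the DMSO range and the other MI-389 arrays above it. That array also had the highest actin 3-prime to 5-prime difference, 1.91, whose part in the value was not tested. Without it the change was 0.30 and called (limma adjusted p = 0.00527). For ATP6V1G1, 3 probe sets at log2 levels near 10 did not pass, while 2 under the background guide on all arrays fell.

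In the membrane-bound V0 sector, 1 of 7 genes rose and 2 fell. ATP6V0D1, the collar that couples the rotor of V1 to the proteolipid ring of V0, had values of 9.75, 9.72 and 9.35 with MI-389 and of 9.11, 9.07 and 9.23 with DMSO. MI-389 replicate 3 stood lower than the other MI-389 arrays but still above the DMSO arrays. The change of ATP6V0D1 was 0.47 (SE 0.10, limma adjusted p = 0.00479), and it was 0.60 without that array. Of its 7 probe sets 6 rose, by 0.25 to 0.47, and the dimmest, also the single one without a suffix, changed by 0.07 and did not pass. ATP6V0D2, the form of this subunit known from osteoclasts and macrophages, was under the background guide on all arrays, at 3.93 ± 0.03 with MI-389 and 3.89 ± 0.05 with DMSO.

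The proton-carrying ring of V0 is built from the products of ATP6V0C and ATP6V0B, and both transcripts were lower. ATP6V0C had values of 9.62, 9.48 and 9.44 with MI-389 and 9.75, 9.66 and 9.74 with DMSO, a change of -0.20 (limma adjusted p = 0.0344). For ATP6V0B they were 10.54, 10.50 and 10.47 with MI-389 against 10.67, 10.68 and 10.68 with DMSO, a change of -0.18 (limma adjusted p = 0.0254). The groups did not overlap for either gene, though for ATP6V0C the gap between them was narrower than the range of the MI-389 arrays. Of the 6 probe sets of ATP6V0B 5 fell, by 0.18 to 0.28, and ATP6V0C has 1 probe set. Both calls were marginal: ATP6V0B was lost when MI-389 replicate 2 or 3 or any DMSO array was left out (adjusted p of 0.0546 to 0.0793), and so was ATP6V0C (0.0502 to 0.106).

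The other V0 genes did not pass. ATP6V0A1 and ATP6V0A2, isoforms of the subunit with the proton channels, changed by -0.10 (interval -0.23 to 0.02) and -0.06 (interval -0.19 to 0.07), and ATP6V0E1, a small membrane subunit, by -0.07 (interval -0.19 to 0.04). Of the accessory proteins, ATP6AP2, also called the prorenin receptor and needed to assemble the pump, rose by 0.37 (SE 0.06, limma adjusted p = 0.00103). It averaged 10.99 ± 0.06 with MI-389 and 10.62 ± 0.08 with DMSO, and 3 of its 5 probe sets rose. ATP6AP1, the other accessory subunit, changed by -0.06 in its brighter probe set and by 0.21 in its dimmer one, and neither passed.

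**Figure D2:**
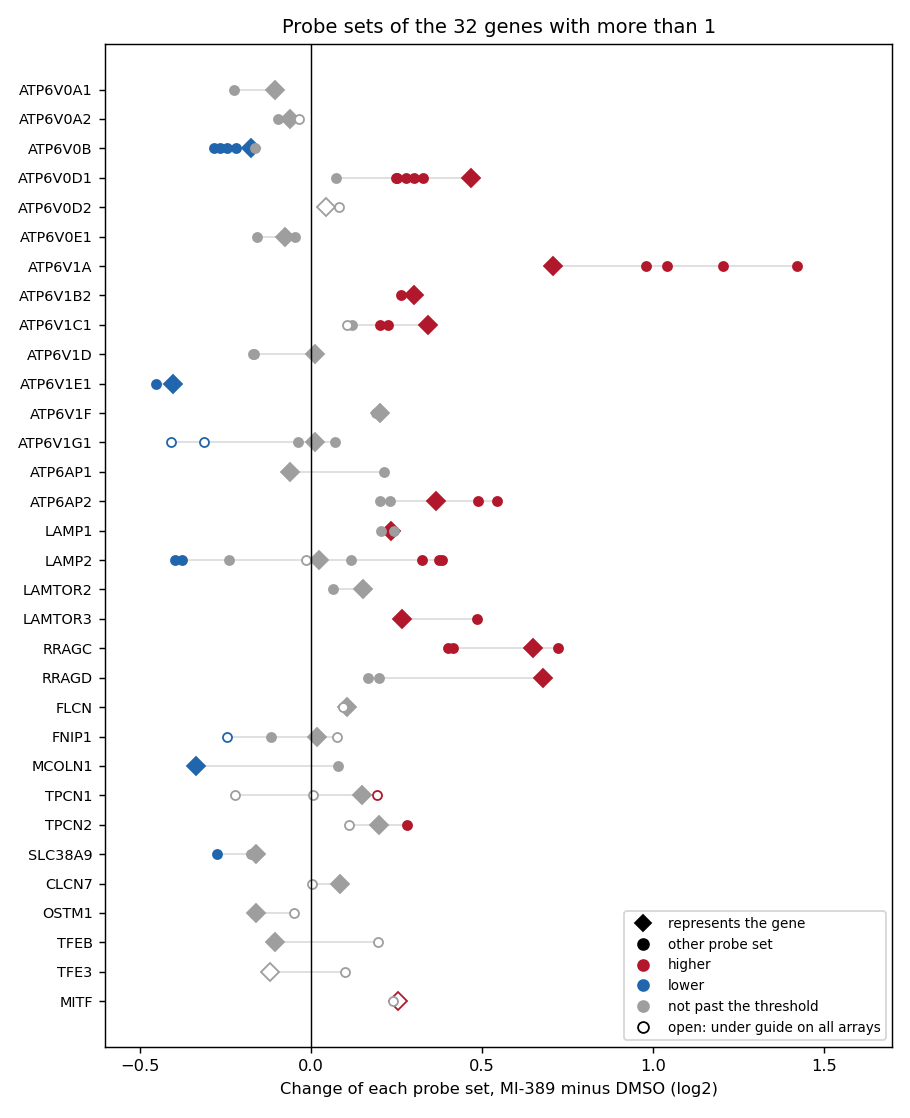
Change of every probe set, MI-389 minus DMSO on the log2 scale, for the 32 genes with more than 1; diamonds mark the brightest probe set, which represents the gene, and open symbols lie under the background guide on all arrays. All 5 probe sets of ATP6V1A and all 4 of RRAGC lie to the right, while those of LAMP2 lie on both sides of 0.

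Over all 114 probe sets, 35 rose and 16 fell, where 14% of all probe sets rose and 14% fell. The shares of all probe sets include those under the background guide, and probe sets of the same gene are counted apart. Among genes above the guide, the share that rose was 30.3% in the set and 30.5% in all. Of the 32 genes with more than 1 probe set, LAMP2 was the single one with calls in both directions. LAMP2 and LAMP1 encode the abundant glycoproteins that line the inner face of the lysosomal membrane, and LAMP2 transcripts are known to end in alternative last exons. The brightest LAMP2 probe set had log2 values of 10.98, 10.97 and 11.02 with MI-389 and 10.98, 10.96 and 10.96 with DMSO, a change of 0.02 (interval -0.09 to 0.14). In contrast, 3 other LAMP2 probe sets rose by 0.33, 0.37 and 0.38. A further 2 fell. One fell by 0.38, and the other, with all MI-389 arrays under the background guide, was at least 1.07-fold lower. The probe set with the larger rise of 0.38 had values of 6.55, 6.66 and 6.60 with MI-389 and 6.20, 6.20 and 6.26 with DMSO. The one with the fall of 0.38 had 6.13, 6.41 and 6.32 with MI-389 and 6.67, 6.70 and 6.61 with DMSO. Both pairs of groups were apart, in opposite directions. Both of these probe sets carry the suffix _s_at, which marks sets that read several transcripts or shared sequence. Which exons these probe sets read was not checked, as no probe sequences or coordinates were used.

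**Figure D3:**
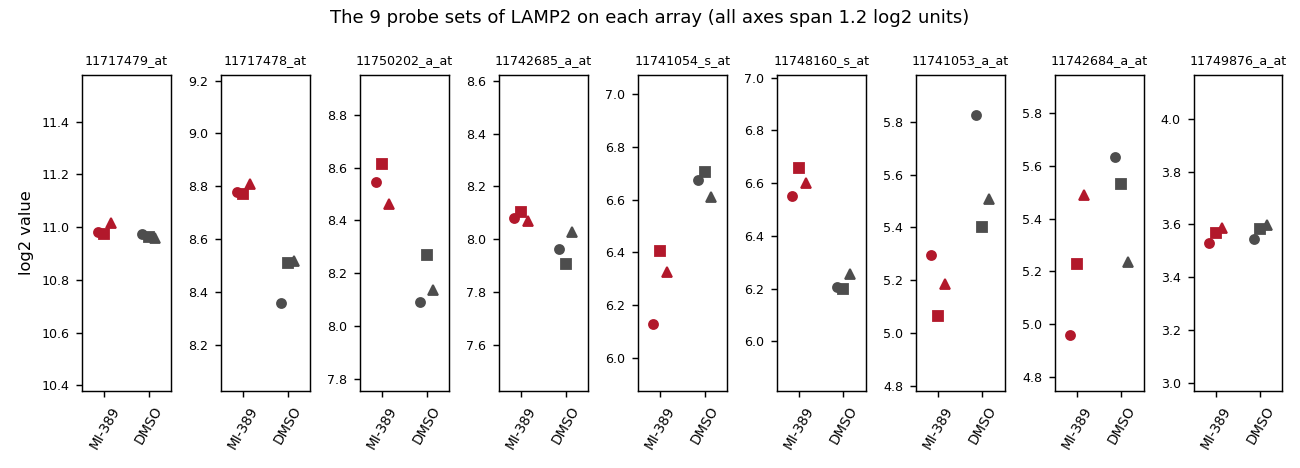
Log2 values of the 9 LAMP2 probe sets on each array (MI-389 left, DMSO right; circles, squares and triangles are replicates 1, 2 and 3), ordered from the brightest to the dimmest. The brightest probe set had overlapping groups, 3 of the others rose and 2 fell.

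LAMP1 rose by 0.23 (SE 0.06, limma adjusted p = 0.0111), from values of 11.03, 11.10 and 10.95 with MI-389 against 10.76, 10.78 and 10.83 with DMSO. The groups did not overlap. Its other 2 probe sets changed by 0.20 and 0.24 without passing, and with spike-in centring LAMP1 stood at -0.02.

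Ragulator, the Rag GTPases and the folliculin complex counted 4 genes higher and 0 lower of 10 measured, with a median change of 0.13 that became -0.12 with spike-in centring. All 3 genes of Ragulator subunits above the background guide had positive changes, of which 2 passed. LAMTOR4 averaged 9.85 ± 0.08 with MI-389 and 9.51 ± 0.07 with DMSO, a change of 0.34 (SE 0.06, limma adjusted p = 0.00234). LAMTOR3, also known as a scaffold of the MEK and ERK kinases, rose by 0.27 (limma adjusted p = 0.0147), and its second probe set, under the guide on all DMSO arrays, was at least 1.13-fold higher. Without DMSO replicate 3, whose LAMTOR3 value of 7.79 was the lowest against 7.92 and 8.04 on the other DMSO arrays, the change was 0.20 and not called (limma adjusted p = 0.0566). LAMTOR2, the partner of LAMTOR3 in a roadblock dimer, changed by 0.15 (interval 0.03 to 0.27, limma adjusted p = 0.0545), with groups that did not overlap. LAMTOR5, the partner of LAMTOR4, had 1 probe set, at 4.16 ± 0.10 with MI-389 and 4.15 ± 0.08 with DMSO, under the background guide.

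The Rag genes are taken by the side of the heterodimer they encode. RRAGC had log2 values of 8.86, 8.92 and 8.97 with MI-389 and 8.27, 8.22 and 8.30 with DMSO. RRAGD had 7.03, 7.22 and 7.25 with MI-389 and 6.58, 6.45 and 6.43 with DMSO. In both, every MI-389 array lay above every DMSO array. The change of RRAGC was 0.65 (SE 0.06, 95% interval 0.52 to 0.77, limma adjusted p = 1.02e-05), and that of RRAGD was 0.68 (SE 0.07, interval 0.51 to 0.84, limma adjusted p = 5.29e-05). Each was called in all 17 alternative settings. All 4 probe sets of RRAGC rose, by 0.40 to 0.72, but only the brightest of the 3 of RRAGD did, the other 2 changing by 0.17 and 0.20 without passing. With the mean of all its probe sets RRAGD changed by 0.35.

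RRAGA, the main partner on the other side of the dimer, had values of 9.41, 9.42 and 9.52 with MI-389 and 9.45, 9.40 and 9.47 with DMSO. The groups lay within each other, and the change was 0.01 (interval -0.11 to 0.14, limma adjusted p = 0.892). The interval leaves out a rise of the size seen for RRAGC, but it rests on 1 probe set, with the suffix _s_at. RRAGB, a close relative of RRAGA known mainly from brain, had values of 3.82, 3.86 and 3.71 with MI-389 and 3.86, 3.82 and 3.87 with DMSO, all under the background guide, so no statement on its change can be made.

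FLCN encodes folliculin, the GTPase activator of RagC and RagD. It had values of 5.68, 5.85 and 5.92 with MI-389 and 5.72, 5.79 and 5.63 with DMSO, close above the background guide and overlapping. The change was 0.11 (interval -0.06 to 0.27, limma adjusted p = 0.332). FNIP1, the binding partner of folliculin, changed by 0.02 (interval -0.12 to 0.16). Its relative FNIP2, a gene of the wider pathway list, rose 1.93-fold and averaged 6.68 ± 0.05 with MI-389 and 5.72 ± 0.20 with DMSO.

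**Figure D4:**
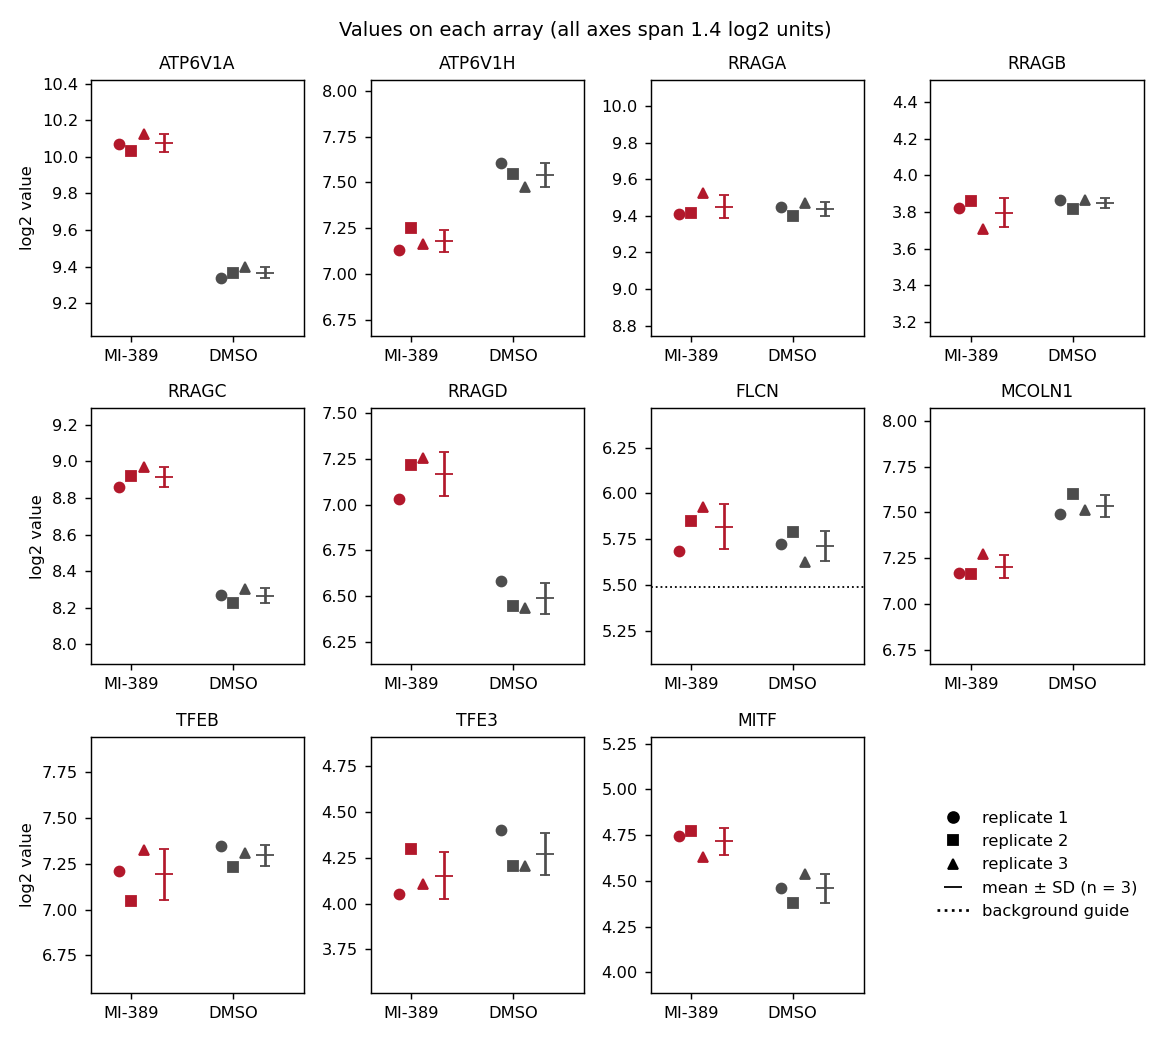
Log2 values on each array for 11 genes (MI-389 left, DMSO right; symbols are replicates 1, 2 and 3; bars are mean ± SD, n = 3), on axes of equal span, with the background guide dotted where it falls in view. RRAGC and RRAGD are higher with MI-389 on every array, MCOLN1 and ATP6V1H lower, and RRAGA, TFEB and FLCN overlap; RRAGB, TFE3 and MITF lie under the guide.

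Among the 6 channels and transporters, MCOLN1 fell and none rose, with a median change of -0.04. MCOLN1 encodes TRPML1, the channel that releases calcium from lysosomes. Its brighter probe set had values of 7.17, 7.16 and 7.28 with MI-389 and 7.49, 7.60 and 7.52 with DMSO, with no overlap. The change was -0.33 (SE 0.06, limma adjusted p = 0.00146). The other probe set of MCOLN1 had 6.79, 6.93 and 6.89 with MI-389 and 6.89, 6.78 and 6.71 with DMSO, a change of 0.08 that did not pass. With the mean of both, MCOLN1 changed by -0.13 and was not called (limma adjusted p = 0.0641), so the fall rests on 1 of its 2 probe sets.

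The other 5 of this class did not pass, although 3 had groups that did not overlap. These were the cation channel genes TPCN1 (0.15, limma adjusted p = 0.0706) and TPCN2 (0.20, limma adjusted p = 0.0843) and SLC38A9, the arginine sensor that binds Ragulator (-0.16, limma adjusted p = 0.0605). Of the 3 probe sets of SLC38A9 1 fell by 0.27, and the gene was called lower in 6 of 17 alternative settings. TPCN2 was called higher in 3, among them by 0.27 without DMSO replicate 1, and TPCN1 in 2. CLCN7, the chloride-proton exchanger of the lysosome, changed by 0.08 (interval -0.06 to 0.23), and OSTM1, its obligate beta subunit, by -0.16 (interval -0.30 to -0.02, limma adjusted p = 0.0814). OSTM1 was called lower in 5 of the 17 settings, among them without MI-389 replicate 3 (-0.20, limma adjusted p = 0.04996) and without DMSO replicate 3 (-0.21, limma adjusted p = 0.0451).

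Of the TFE factors, TFEB alone was above the background guide. Its values were 7.21, 7.05 and 7.33 with MI-389 and 7.35, 7.24 and 7.31 with DMSO. The groups overlapped, and the change was -0.10 (interval -0.27 to 0.07, limma adjusted p = 0.351). TFE3 had 4.05, 4.30 and 4.10 with MI-389 and 4.40, 4.21 and 4.21 with DMSO, under the guide and overlapping. MITF, best known as the master factor of melanocytes and also active in osteoclasts and mast cells, had 4.75, 4.77 and 4.63 with MI-389 and 4.46, 4.38 and 4.54 with DMSO. It passed (limma adjusted p = 0.0113) with every array under the guide, so no size is given for its change, and the call was lost without DMSO replicate 2 (limma adjusted p = 0.0565). TFEC, the fourth factor of this family and no member of the list, stood at 9.13 ± 0.12 with MI-389 and 7.10 ± 0.03 with DMSO, a change of 2.03 (limma adjusted p = 1.31e-08).

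Other genes of the pathway were listed as its known members, with earlier results of these data known. For comparison with the counts of these lists, 18.4% of all genes rose and 15.7% fell. Among genes above the background guide the shares were 30.5% and 27.5%. Of 18 other pump subunits and assembly factors measured, 8 rose and 1 fell, with a median of 0.11 (5 and 7, median -0.14, with spike-in centring). DMXL2, a subunit of the RAVE-like complex that puts V1 onto V0, rose 3.39-fold (log2 change 1.76), and ROGDI, of the same complex, rose by 0.76. ATP6V1G2 passed as higher with every array under the background guide. TCIRG1, the a3 isoform of the pump found in osteoclasts and macrophages, fell by 0.22. Of 25 other genes of mTORC1 and amino acid sensing, 6 rose and 5 fell, with a median of 0.00 (6 and 14, median -0.25, with spike-in centring). DEPDC5, a subunit of the GATOR1 complex that turns off RagA and RagB, rose by 1.25, the mTOR-binding protein gene DEPTOR by 1.18 and FNIP2 by 0.95. MLST8, a core subunit of mTORC1, fell by 1.57, EIF4EBP1, which encodes an mTORC1 substrate, by 1.42 and SEH1L, of the GATOR2 complex, by 0.56. NPRL2, the GATOR1 subunit that carries its catalytic residue, fell by 0.35 and is named after its value was seen.

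Of 29 other lysosomal membrane proteins, 13 rose and 3 fell, with a median of 0.13 (8 and 13, median -0.12, with spike-in centring). The amino acid transporter SLC36A1, the sialic acid transporter SLC17A5 and SCARB2, which carries glucocerebrosidase to lysosomes, rose by 0.82, 0.82 and 0.81, and LAPTM4B, MFSD12 and the cystine transporter CTNS fell by 1.44, 1.04 and 0.44. Of 31 measured proteins of the lysosomal lumen, 26 rose and 1 fell, with a median of 0.63 (22 and 3, median 0.37, with spike-in centring). FUCA1, a fucosidase, rose by 2.01, GRN, which encodes progranulin, by 1.97, and PSAP, the precursor of the saposins, by 1.96, and SMPD1, the acid sphingomyelinase, fell by 0.52. Beside these the 17 pump genes had a median of 0.01 and the 38 genes together 0.02, with 11 higher and 5 lower, and the difference between these lists was not tested. Of 13 genes of TFEC and reported targets of its family, 7 rose and 2 fell, with a median of 0.24 that became -0.01 with spike-in centring. GPNMB, a glycoprotein induced by these factors, passed as higher at 5.02 ± 1.07 with MI-389 and 3.21 ± 0.03 with DMSO, but with the DMSO arrays under the background guide no fold can be given, and MAP1LC3B and PLIN2 fell by 0.44 and 0.32.

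**Figure D5:**
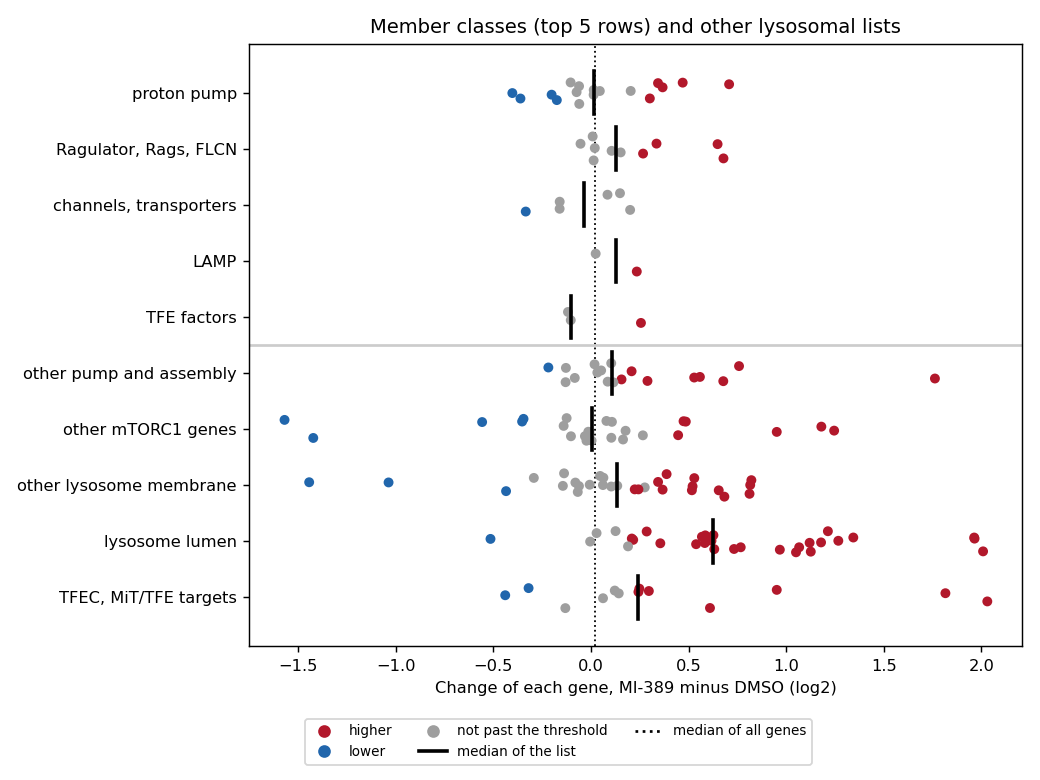
Change of each gene, MI-389 minus DMSO on the log2 scale, for the 5 member classes (top) and the other lysosomal lists (bottom), with the median of each list (bar) and of all genes (dotted line). The pump genes lie on both sides of a median of 0.01, and 26 of 31 lumen genes rose, with a median of 0.63; with spike-in centring all points move left by 0.25, and every median shown other than that of the lumen genes is then negative.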

How the data were processed

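The values were the log2 expression values deposited by the authors for each probe set. The submitters' processing notes name RMA and limma without versions, and RMA settings are not known here. RMA compresses dim values, so folds of dim genes are understated. Control probe sets (93) entered no test. Genes were named by the platform annotation, with RefSeq symbols where they matched: 45253 probe sets had 1 gene, 1327 several and 2713 none. The brightest probe set over the 6 arrays stood for its gene.

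Groups were compared in R 4.3.3 by the two-sided moderated test of limma 3.58.1 (lmFit, then eBayes), without covariates. P-values were adjusted by Benjamini-Hochberg across all genes, or across all probe sets, and "rose" and "fell" mean an adjusted p under 0.05. On arrays simulated for this comparison, 18039 of 18239 genes were left unchanged. There the fit recovered 12% of genes changed by 0.25, 78% at 0.5 and 100% at 1 on the log2 scale. In the data 34.1% of genes were called, so the adjusted threshold was easier to pass and these shares do not carry over.

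Members and lists were chosen with earlier results of these data known. All members are named. Values on every array were planned for the Rag and TFE genes, FLCN, MCOLN1, ATP6V1H and members changed by at least 0.5, and were added for others after their values were seen. Of each further list, up to 3 rises and 3 falls are named. Coordinates are those of the RefSeq promoter table (GRCh38.p14). Precision is set by the 3 arrays per group. Alternatives covered scaling, filtering, probe set choice, variance model, threshold and arrays left out.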

Additional observations from a re-analysis of the deposited data

How the results depend on the processing

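With 3 arrays per group and no detection calls, changes near 0.2 on the log2 scale sit at the limit of what the test can call. The fit was repeated under 17 alternative settings, and ATP6V1A, RRAGC and RRAGD were called higher in all of them. Centring on the spike-ins gave 4 genes of the set higher and 21 lower (1397 and 11056 over all genes), with medians of -0.23 for the set, -0.24 for the pump, -0.12 for LAMP, -0.12 for Ragulator and the Rag genes, -0.29 for the channels and -0.36 for the TFE factors. It turned ATP6V0D2 to -0.21, ATP6V1D to -0.24, ATP6V1F to -0.049, ATP6V1G1 to -0.24, LAMP1 to -0.018, LAMP2 to -0.23, LAMTOR2 to -0.10, LAMTOR5 to -0.24, RRAGA to -0.24, FLCN to -0.15, FNIP1 to -0.23, TPCN1 to -0.10, TPCN2 to -0.052 and CLCN7 to -0.17. By construction it lowers every gene by the same amount. A common array median gave 0.0026 for the set and -0.0056 for the pump, and turned ATP6V1D to -0.0052, ATP6V1G1 to -0.0056, LAMTOR5 to -0.011 and RRAGA to -0.0056. Quantile normalisation gave medians of 0.10 for LAMP and -0.0026 for the channels, and turned LAMP2 to -0.0046 and LAMTOR5 to -0.011, and array weights turned FNIP1 to -0.0051. Without dim genes the medians were 0.054 for the set, -0.023 for the pump, 0.21 for Ragulator and the Rag genes and 0.076 for the TFE factors. The mean of all probe sets gave 0.038, -0.063, 0.10 and 0.046 for the same lists, and turned ATP6V1D to -0.11, ATP6V1G1 to -0.13, ATP6AP1 to 0.077, FNIP1 to -0.066 and TFEB to 0.046. Preferring probe sets without a suffix gave -0.046 for the pump and -0.10 for the channels, and turned ATP6V1G1 to -0.41, there called lower from a probe set under the background guide, and TPCN1 to -0.22. A threshold of 0.01 left 3 genes of the set lower, and a test against a 1.2-fold change left 3 higher and 0 lower (1282 and 1175 over all genes). Why the probe set choices moved these values was not tested.

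Leaving out 1 array at a time gave 10 to 12 genes of the set higher and 3 to 5 lower, and 2790 to 3328 and 2426 to 2832 over all genes. The medians ran from 0.018 to 0.042 for the set, -0.017 to 0.022 for the pump, 0.12 to 0.14 for LAMP, 0.10 to 0.15 for Ragulator and the Rag genes, -0.047 to -0.0025 for the channels and -0.13 to -0.030 for the TFE factors. The genes that turned in this step ran from -0.017 to 0.036 for ATP6V1D, -0.021 to 0.047 for ATP6V1G1, -0.11 to 0.0063 for ATP6AP1, -0.040 to 0.062 for LAMTOR5, -0.023 to 0.033 for RRAGA and -0.030 to 0.053 for FNIP1, and none of them was called in the comparison of all 6 arrays. Fewest were lower, 3, without MI-389 replicate 2, DMSO replicate 1 or DMSO replicate 2, where ATP6V0B and ATP6V0C were lost.

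With the replicate number as a block, 3 genes of the set were lower, ATP6V0B (limma adjusted p = 0.0668) and ATP6V0C (0.0506) being lost. Same-numbered arrays deviated with correlations of -0.18, 0.03 and -0.11, and 1 of 6 arrays correlated best with its own number. With 3 arrays per group these values cannot tell whether same-numbered cultures were handled together.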
